A study of Homo sapiens with 6 samples.

Results

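The genes described here are 37 genes of protein folding, quality control and stress sensing in the endoplasmic reticulum (ER), taken by symbol from a list of known function; the list was drawn up with earlier results of these data known. All 37 had a row among the 60617 genes of the deposited count table, and all 37 were among the 17223 genes with enough counts to be tested. RNA was sequenced from NCI-H1299, an established human line that the labels describe as lung adenocarcinoma. There were 3 control libraries, labelled wild type with Puro in the title, and 3 libraries labelled as FuHsi knockdown with Sh1 in the title. The meaning of Puro and Sh1 is not given, nor is any other treatment or a time, and a single knockdown title stands for a single construct as far as the labels go. Nothing in them ties the replicates to separate cultures, so the p-values below speak only to how much these libraries varied, and that variation may be technical.

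The ER is where secreted and membrane proteins enter the secretory pathway, fold and form disulfide bonds. When unfolded proteins collect there, 3 membrane sensors, IRE1 (gene ERN1), ATF6 and PERK (gene EIF2AK3), start the unfolded protein response. IRE1 splices the XBP1 transcript into the form that encodes an active transcription factor, ATF6 is cut in the Golgi to release another, and PERK slows translation and favours production of ATF4. XBP1 and ATF6 raise chaperones and the machinery of ER-associated degradation, which sends proteins that fail to fold to the proteasome.

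Library totals ran from 24231515 to 34306849 counts, and every control library was deeper than every knockdown library. Library-scaled counts (CPM, on a log2 scale) correlated at 0.990 to 0.992 for libraries of one group and at 0.963 to 0.969 across groups. Of 6 epithelial markers 3 reached 1 CPM in every library, as did all 3 mesenchymal markers, while EPCAM and CDH1 averaged at most 0.284 and 0.110 CPM in either group. The 5 lung adenocarcinoma markers (NKX2-1, NAPSA, SFTPB, SFTPC and SFTPA1) summed to 0.0874 to 0.423 CPM in control and 0.742 to 1.11 in knockdown, with SFTPC and SFTPA1 at 0 counts in all 6 libraries. Leukocyte, endothelial and fibroblast markers summed to at most 1.48, 2.10 and 2.94 CPM. The abundance of FuHsi RNA itself is not analysed here.

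More of the 37 genes were higher than lower in knockdown, and the rises were the larger changes. With TMM scaling (trimmed mean of M values) and genes called at a Benjamini-Hochberg adjusted p under 0.05 in edgeR's quasi-likelihood test, 20 of the 37 were higher, 10 were lower and 7 were not called. Of all tested genes 30.7% were higher and 30.9% lower, so the share of members that were lower was near the background. The median log2 fold change, knockdown over control, was 0.18 for the 37 genes and 0.03 for all tested genes. Rises of at least 2-fold numbered 5 (13.5%, against 9.16% of all genes): STC2, HERPUD1, XBP1, CREB3L2 and HSPA5. None of the 37 fell by that much, against 3.12% of all genes. Knockdown and control libraries did not overlap for 31 of the 37 (83.8%), against 65.3% of all genes.

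The balance of rises and falls moved with the scaling. Library size alone, without TMM, raised the median of all tested genes by 0.15 log2 units and took the share of higher genes among called genes from 49.9% to 64.4%. For the 37 genes it gave 25 higher and 4 lower. The falls of PDIA3, P4HB, ERO1A, UGGT1, SYVN1 and SELENOS were not called without TMM. These are bulk RNA samples, in which fewer cells of a kind and less RNA per cell cannot be told apart.

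**Figure D1:**
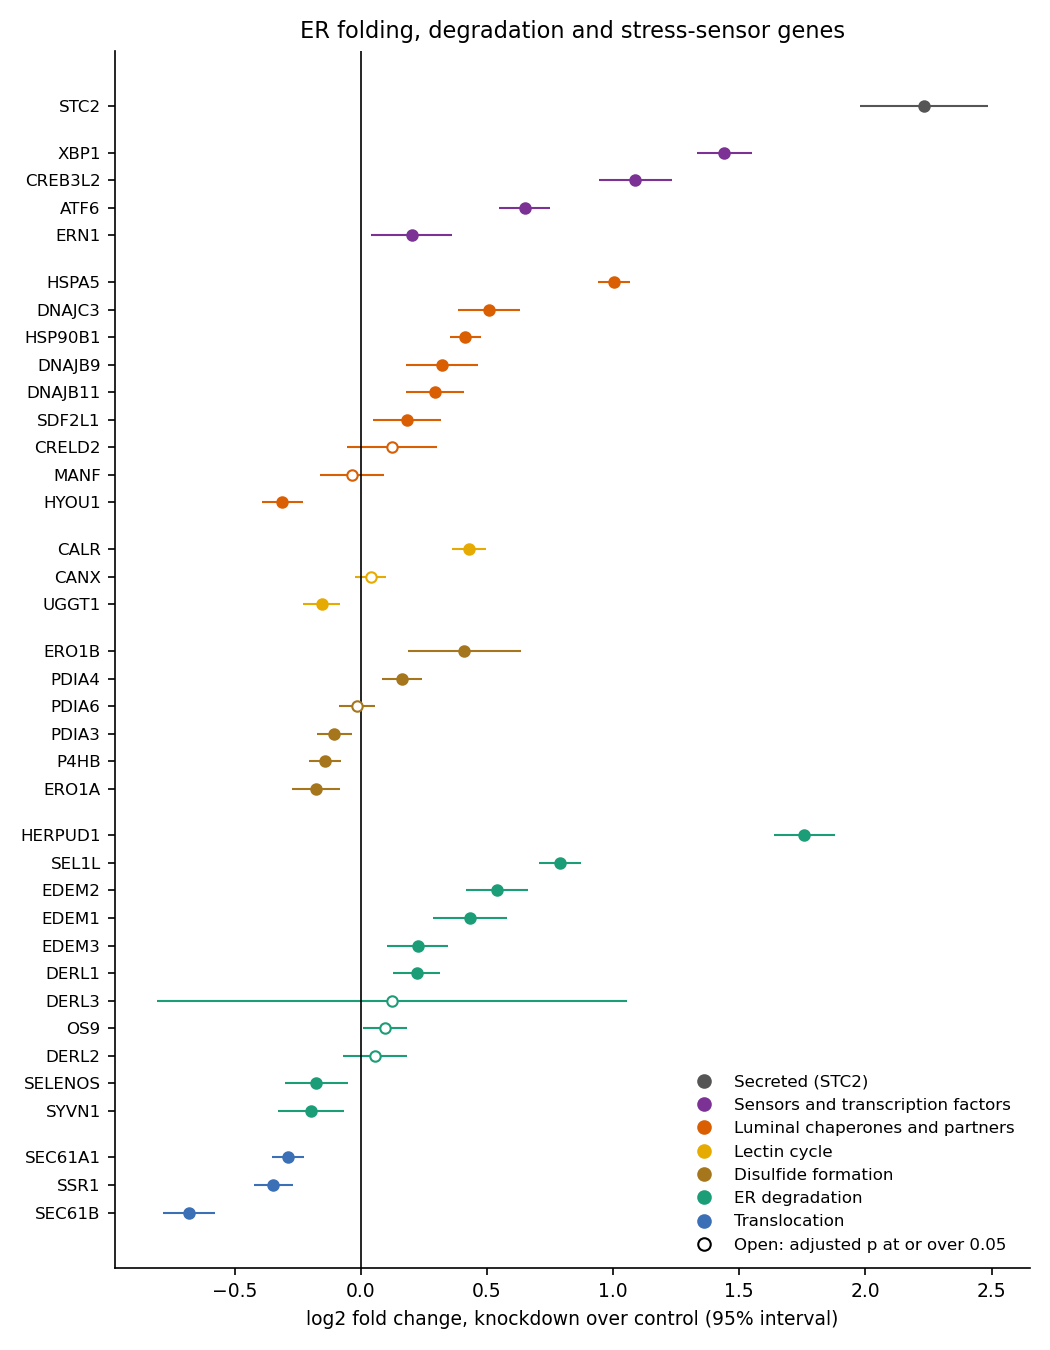
Log2 fold change of each of the 37 genes, knockdown over control on the TMM scale, with 95% intervals from edgeR's quasi-likelihood fit, coloured by role. Filled points passed an adjusted p of 0.05; STC2, HERPUD1, XBP1, CREB3L2 and HSPA5 lie at or beyond 1, and the 3 translocation genes lie below 0.

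The promoters of many folding genes carry an exact ER stress response element, the sequence through which ATF6 and XBP1 act together with the CCAAT-binding factor NF-Y. Windows from 250 bases before to 50 bases after each RefSeq start (GRCh38.p14) were available for 34 of the 37 genes, all but PDIA3, DERL1 and DERL3. The element (ERSE, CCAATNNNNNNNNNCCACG, either strand) was found in 8 of these 34 genes and in 0.0916% of 27305 genes with a window. By role, 7 of 17 folding genes held it, 0 of 9 degradation genes and 1 of 8 others, which was XBP1. A shorter relative, ERSE-II (ATTGGNCCACG), was found in HYOU1, SDF2L1 and HERPUD1, and in 0.0696% of all genes. Several of the 37 were listed as known ATF6 and XBP1 targets, a status tied to this element, so its frequency among them follows in part from the choice of genes. The windows below are shown so that the element can be read beside the response of each gene. Each line is 30 bases read 5′ to 3′ on the gene's strand, with the fixed letters of the element, or of its reverse complement, in capitals.
HSPA5 (chr9:125241385-125241414, minus strand): cttcaCCAATcggcggcctCCACGacgggg
HSP90B1 (chr12:103930211-103930240, plus strand): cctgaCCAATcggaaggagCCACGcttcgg
CALR (chr19:12938379-12938408, plus strand): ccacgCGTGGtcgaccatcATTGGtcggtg
CRELD2 (chr22:49918549-49918578, plus strand): cctctCGTGGcgaactcggATTGGgccata
CANX (chr5:179698773-179698802, plus strand): cccggCCAATcttcacactCCACGaagaat
PDIA6 (chr2:10812847-10812876, minus strand): ccggaCCAATgagccgcagCCACGgcttgg
XBP1 (chr22:28800597-28800626, minus strand): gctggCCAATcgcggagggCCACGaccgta
HERPUD1, ERSE-II (chr16:56932016-56932045, plus strand): cggacgccgATTGGgCCACGttgggagagt
SDF2L1, ERSE-II (chr22:21642105-21642134, plus strand): cctcggaagCGTGGaCCAATcaaaaccctc
HYOU1, ERSE-II (chr11:119057264-119057293, minus strand): ggcctgggaCGTGGtCCAATgagtacgcgc

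The element lay 66 to 48 bases before the start of HSPA5, 52 to 34 before that of XBP1 and 117 to 107 before that of HERPUD1. HSP90B1 had a second ERSE and HYOU1 a second ERSE-II, and ERO1B had an ERSE 243 to 225 bases before its start. The elements of CANX and PDIA6 lay before RefSeq starts inside the annotated gene, away from its 5′ end. Genes with the element did not share one response. Of the 8 genes with an ERSE, 5 were higher, 0 were lower and CRELD2, CANX and PDIA6 were not called (median log2 fold change 0.41). The share of higher genes was 62.5%, against 30.7% of all genes. The 3 genes with ERSE-II ranged from -0.31 for HYOU1 through 0.18 for SDF2L1 to 1.76 for HERPUD1. Of the 8 folding genes with a window and neither element, 4 were higher and 3 lower (median log2 fold change 0.06). Their shares were 50% and 37.5%, against 30.7% and 30.9% of all genes. A match is a description of letters and does not show that a factor bound there, and the difference between these groups was not tested.

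Another pair of words was searched on both strands. The XBP1-type element UPRE (TGACGTGG) was found in 0.927% of all genes and, among the 37, in HYOU1, where it overlaps the distal ERSE-II. The element bound by ATF4 with a C/EBP partner (CARE, TGATGNAA) was found in 4.46% of all genes. Of the 37 it was found in HERPUD1 and CREB3L2, 2 of the 34 with a window, which is near that share. In CREB3L2 it lay after a RefSeq start inside the gene (chr7:137932954-137932983), away from the gene's 5′ end. Whether the word has a part in either rise was not tested. HERPUD1, which rose most among the degradation genes, thus carried both the ERSE-II shown above and this word (chr16:56931955-56931984, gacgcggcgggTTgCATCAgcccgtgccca, with the fixed letters of the reverse complement in capitals).

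The 4 sensors and transcription factors all rose (100%, against 30.7% of all genes). XBP1 (ENSG00000100219, GRCh38 chromosome 22, 28794555 to 28800597, minus strand) was at 45.2, 48.8 and 52.2 CPM in the control libraries and 123, 129.6 and 144 in knockdown. Every knockdown library was above every control library by more than 2-fold. The log2 fold change was 1.44 ± 0.05 (SE), with an edgeR adjusted p of 9.16e-24. Counts per gene do not separate spliced from unspliced XBP1 RNA, so this is a change in total XBP1 transcript and not a measure of IRE1 activity.

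CREB3L2 (ENSG00000182158, chromosome 7, 137874979 to 138002067, minus strand) encodes a membrane-held transcription factor that is cut and released like ATF6. It was at 21.5, 19.0 and 17.97 CPM in control and 43.0, 42.7 and 38.9 in knockdown, a log2 fold change of 1.09 ± 0.07 (SE, edgeR adjusted p 4.67e-20). Its groups did not overlap. ATF6 itself averaged 50.2 ± 1.49 CPM in control and 78.7 ± 2.79 in knockdown (SD, n = 3), 0.65 higher on the log2 scale. ERN1 had the smallest change of the 4, with 19.7 ± 0.508 CPM in control and 22.6 ± 1.03 in knockdown (SD, n = 3), a log2 difference of 0.20 with an edgeR adjusted p of 0.0265. That call was lost in 5 of 14 alternative settings, among them DESeq2 (0.18) and leaving out control replicate 1, control replicate 2 or knockdown replicate 1 (0.16 to 0.19).

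STC2 and HERPUD1 had the largest rises of the 37. STC2 (stanniocalcin 2, ENSG00000113739, chromosome 5, 173314713 to 173329503, minus strand) encodes a secreted glycoprotein that is induced by ER stress. It was at 14.0, 10.6 and 12.5 CPM in control and 49.3, 58.9 and 66.3 in knockdown, 4.70-fold higher. The log2 fold change of 2.23 ± 0.12 (SE, edgeR adjusted p 9.13e-10) stood at percentile 98.5 of all tested genes. HERPUD1 (ENSG00000051108, chromosome 16, 56932048 to 56944863, plus strand) encodes a ubiquitin-like membrane protein that helps assemble the degradation complex. It was at 29.9, 28.8 and 33.7 CPM in control and 94.2, 112 and 106 in knockdown, 3.38-fold higher (log2 fold change 1.76 ± 0.06 SE, edgeR adjusted p 1.47e-26). Neither gene's groups overlapped, and neither shares exonic bases with another annotated gene.

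**Figure D2:**
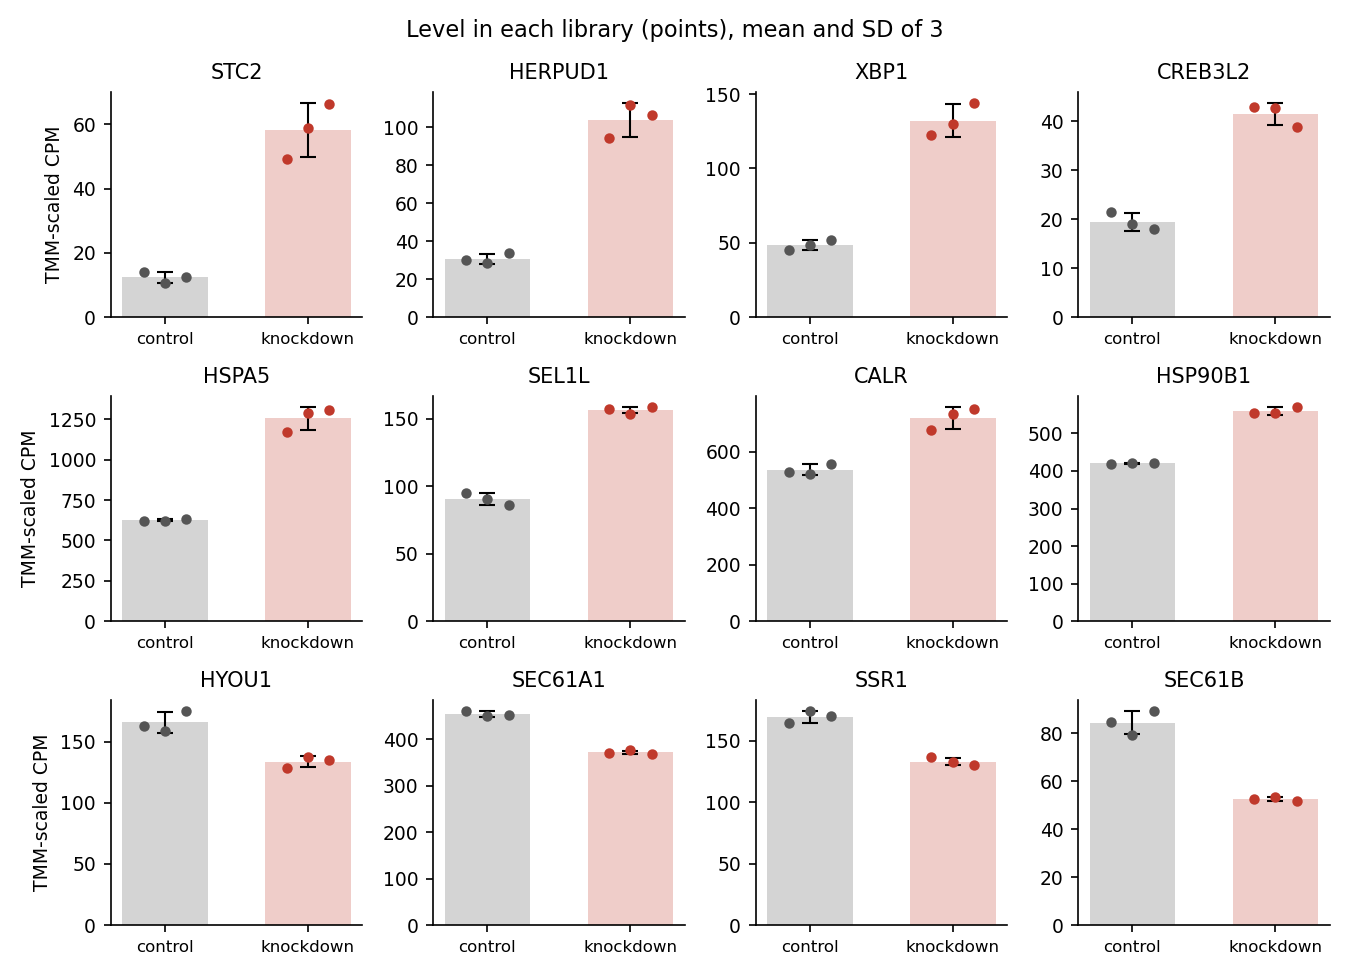
TMM-scaled CPM of 12 of the genes in each library (points), with the mean (bar) and SD (error bar) of 3 libraries per group; each vertical axis starts at 0. Control and knockdown points do not overlap in any panel, with knockdown above control for STC2 through HSP90B1 and below it for HYOU1, SEC61A1, SSR1 and SEC61B.

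Among the 9 luminal chaperones and their partners, 6 rose, 1 fell and 2 were not called. The shares were 66.7% higher and 11.1% lower, against 30.7% and 30.9% of all genes. HSPA5 (BiP, ENSG00000044574, chromosome 9, 125234853 to 125241330, minus strand) is the ER Hsp70 and also holds the stress sensors inactive. It was at 622, 623 and 636 CPM in control and 1174, 1288 and 1308 in knockdown, a 2.00-fold rise (log2 fold change 1.00 ± 0.03 SE, edgeR adjusted p 1.20e-32). Among genes of like abundance (the upper 1 of 5 equal bins), this rise stood at percentile 97.4. HSP90B1 (GRP94), the ER Hsp90, averaged 420.2 ± 2.40 CPM in control and 559.6 ± 10.03 in knockdown (SD, n = 3) and was 0.41 higher on the log2 scale.

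The 3 J-domain partners of HSPA5 among the 37 genes rose. DNAJC3 (p58IPK) averaged 33.5 ± 1.96 CPM in control and 47.6 ± 1.90 in knockdown (SD, n = 3), a log2 difference of 0.51 with a 95% interval of 0.38 to 0.63, below that of HSPA5 at 0.94 to 1.07. DNAJB9 (ERdj4), a classical XBP1 target, was at 0.32 and DNAJB11 (ERdj3) at 0.29. Other annotated genes cover 23.2% of the exonic bases of DNAJB11. SDF2L1, which binds DNAJB11, was at 0.18 with an edgeR adjusted p of 0.0171, and lost its call with DESeq2 (0.16) and without control replicate 1 (0.13) or knockdown replicate 1 (0.15).

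HYOU1 (GRP170), the large Hsp70-like protein that reloads HSPA5 with nucleotide, went the other way. It was at 163, 159 and 175 CPM in control and 129, 137 and 135 in knockdown, a log2 fold change of -0.31 ± 0.04 (SE, edgeR adjusted p 9.13e-10). All 3 knockdown libraries were below all 3 control libraries. Among genes of like abundance, however, this fall stood at percentile 39.8, in a bin of which 60.3% of genes were lower. The ratio of HSPA5 to HYOU1 counts within a library, which no scaling can change, was 3.79 ± 0.148 in control and 9.40 ± 0.287 in knockdown (SD, n = 3). CRELD2 and MANF, secreted ER stress proteins, were not called, at 0.12 (95% interval -0.06 to 0.30) and -0.04 (-0.16 to 0.09).

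The lectin cycle, which holds glycoproteins in the ER until they fold, was split over its 3 genes. CALR (calreticulin), the soluble lectin, was at 527, 522 and 559 CPM in control and 677, 734 and 751 in knockdown. The groups did not overlap, and the log2 fold change was 0.43 ± 0.03 (SE, edgeR adjusted p 3.57e-16). CANX (calnexin), its membrane-bound counterpart, averaged 568 ± 10.2 CPM in control and 583 ± 18.2 in knockdown (SD, n = 3) and was not called, at 0.04 (95% interval -0.02 to 0.10). Library size alone called CANX higher at 0.19, and upper-quartile factors and a stricter filter did so at 0.10 and 0.08. UGGT1, the glucosyltransferase that returns misfolded glycoproteins to the lectins, was at -0.16 with an edgeR adjusted p of 0.000146, and at -0.0026 without TMM, where it was not called.

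Of the 6 enzymes of disulfide formation 2 were higher, 3 lower and 1 not called, with no change beyond 0.41 log2 units. The shares were 33.3% higher and 50% lower, against 30.7% and 30.9% of all genes. Set against the median of genes of like abundance, all 6 were above. ERO1B and PDIA4 rose, by 0.41 and 0.16 log2 units. ERO1B was at 9.42, 9.40 and 8.86 CPM in control and 10.8, 13.6 and 12.5 in knockdown. Its paralog ERO1A, the oxidase that recharges protein disulfide isomerases, was at -0.18, P4HB (PDI itself) at -0.14 and PDIA3 (ERp57), which works with the lectins, at -0.10. PDIA6 was not called, at -0.02 (95% interval -0.09 to 0.05). With library size alone the list's median went from -0.06 to 0.09 and none of the 6 was lower: ERO1A was at -0.02, P4HB at 0.01 and PDIA3 at 0.05, all without a call, and PDIA6 was called higher at 0.14. PDIA3 also lost its call with upper-quartile factors (-0.04), with a stricter filter (-0.06) and without knockdown replicate 1 (-0.08). Other genes cover 18.9% of the exonic bases of PDIA3 and 25.2% of those of PDIA6.

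Of the 11 genes of ER-associated degradation, 6 rose, 2 fell and 3 were not called (median 0.22). The shares were 54.5% higher and 18.2% lower, against 30.7% and 30.9% of all genes. After HERPUD1, the largest rise was that of SEL1L, the scaffold that joins substrate receptors to the ubiquitin ligase. SEL1L was at 94.9, 90.7 and 86.1 CPM in control and 157, 154 and 158 in knockdown (log2 fold change 0.79 ± 0.04 SE, edgeR adjusted p 8.34e-25). The 3 EDEM proteins, which trim mannose from glycoproteins marked for disposal, all rose. EDEM2 averaged 36.4 ± 1.36 CPM in control and 52.97 ± 4.43 in knockdown (SD, n = 3), 0.54 higher on the log2 scale, while EDEM1 was at 0.43 and EDEM3 at 0.23. EDEM3 lost its call without knockdown replicate 3 (0.13), its highest library at 58.6 CPM against 50.1 and 48.5.

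The ligase itself was lower. SYVN1 (HRD1) was at 36.3, 39.3 and 40.6 CPM in control and 34.4, 35.0 and 31.7 in knockdown, a log2 fold change of -0.20 ± 0.07 (SE, edgeR adjusted p 0.00670). The ratio of HERPUD1 to SYVN1 counts within a library was 0.796 ± 0.0553 in control and 3.09 ± 0.316 in knockdown (SD, n = 3). SELENOS, a selenoprotein that links the complex to the cytosolic ATPase VCP, was at -0.18 (edgeR adjusted p 0.0135). With library size alone SYVN1 was at -0.04 and SELENOS at -0.02, neither with a call. Both also lost it with upper-quartile factors (-0.14 and -0.12), and SELENOS with a stricter filter (-0.14) and without control replicate 2 (-0.17) or knockdown replicate 1 (-0.15).

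Of the derlins, membrane proteins of the exit channel, DERL1 rose by 0.22 log2 units, and DERL2 was not called, at 0.06 (95% interval -0.07 to 0.18). DERL3 had 10 to 18 counts per library and was at 0.370 to 0.670 CPM. At that depth its interval ran from -0.81 to 1.06, and 77.0% of its exonic bases overlap SMARCB1 on the other strand. OS9, a lectin that delivers substrates to SEL1L, was just outside the threshold at 0.10, with an edgeR adjusted p of 0.0503, although its groups did not overlap. OS9 was called at 0.11 to 0.25 in 4 settings: library size alone, upper-quartile factors, a stricter filter and without knockdown replicate 1.

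All 3 genes of protein translocation into the ER fell (100%, against 30.9% of all genes). SEC61B (ENSG00000106803, chromosome 9, 99222064 to 99230615, plus strand), a small subunit of the SEC61 channel, was at 84.7, 79.3 and 89.2 CPM in control and 52.6, 53.3 and 51.7 in knockdown. This was the largest fall of the 37, at -0.68 ± 0.05 on the log2 scale (SE, edgeR adjusted p 3.88e-18), with no overlap of the groups. SEC61A1, the pore-forming subunit, averaged 455 ± 6.26 CPM in control and 372 ± 4.11 in knockdown (SD, n = 3), a log2 difference of -0.29. SSR1, of the translocon-associated TRAP complex, was at 164, 174 and 170.2 CPM in control and 137, 133 and 130.3 in knockdown, a log2 difference of -0.35. These 3 falls and that of HYOU1 were called in all 14 alternative settings, library size alone among them. Among genes of like abundance, SEC61B stood at percentile 9.87. SEC61A1 and SSR1 stood at 41.5 and 35.2 of the highest bin, where 60.3% of genes were lower, so their falls were ordinary for their abundance.

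Fold changes of folding and degradation genes covered overlapping ranges, from -0.31 to 1.00 and from -0.20 to 1.76 on the log2 scale. The 18 folding genes (chaperones, lectin cycle and disulfide formation) had a median log2 fold change of 0.14 with 9 higher and 5 lower, and the 11 degradation genes one of 0.22 with 6 higher and 2 lower. Higher genes were 50% of the folding and 54.5% of the degradation genes, against 30.7% of all genes. Lower genes were 27.8% and 18.2%, against 30.9%. The median of the degradation genes was 0.08 above that of the folding genes. Limited to 12 usual ATF6 and XBP1 targets among the folding genes (8 higher, 1 lower, median 0.24), the difference was -0.02. Leaving out 1 library at a time gave 0.03 (without control replicate 3) and 0.04 (without knockdown replicate 2) at the low end, and 0.12 (without control replicate 2) and 0.13 (without knockdown replicate 3) at the high end. The sign of this difference thus rested on how the folding class was drawn.

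Summed counts gave both classes a larger share of the library in knockdown. The folding genes took 0.366%, 0.366% and 0.369% of all counts in the control libraries and 0.486%, 0.507% and 0.516% in knockdown. The degradation genes took 0.0499%, 0.0494% and 0.0489% in control and 0.0727%, 0.0751% and 0.0751% in knockdown. The shares use no TMM factor, and the mean share in knockdown was 1.37 times that in control for folding genes and 1.504 times for degradation genes. Without HSPA5 the folding share was 1.20 times its control mean, and without HERPUD1 the degradation share was 1.36 times. A typical gene rose on this scale too. With library size alone, the median log2 fold change was 0.18 for all tested genes, 0.30 for folding genes and 0.37 for degradation genes. HERPUD1 alone made up 5.91% ± 0.509 of the degradation counts in control and 14.7% ± 0.928 in knockdown (SD, n = 3).

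The ratio of folding to degradation counts within a library, which no scaling can change, was 7.34, 7.40 and 7.55 in control and 6.69, 6.75 and 6.87 in knockdown. All 3 knockdown ratios were below all 3 control ratios. Without HSPA5 and HERPUD1 the ratio was 6.62 ± 0.129 in control and 5.85 ± 0.0734 in knockdown (SD, n = 3). The fall holds for the folding class of 18 genes. With the counts of the 12 usual ATF6 and XBP1 targets alone over the degradation counts, the ratio was instead higher in knockdown. Its direction thus also rested on how the folding class was drawn. These sums weigh genes by abundance and length and were not tested, since the genes of a class are not replicates.

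**Figure D3:**
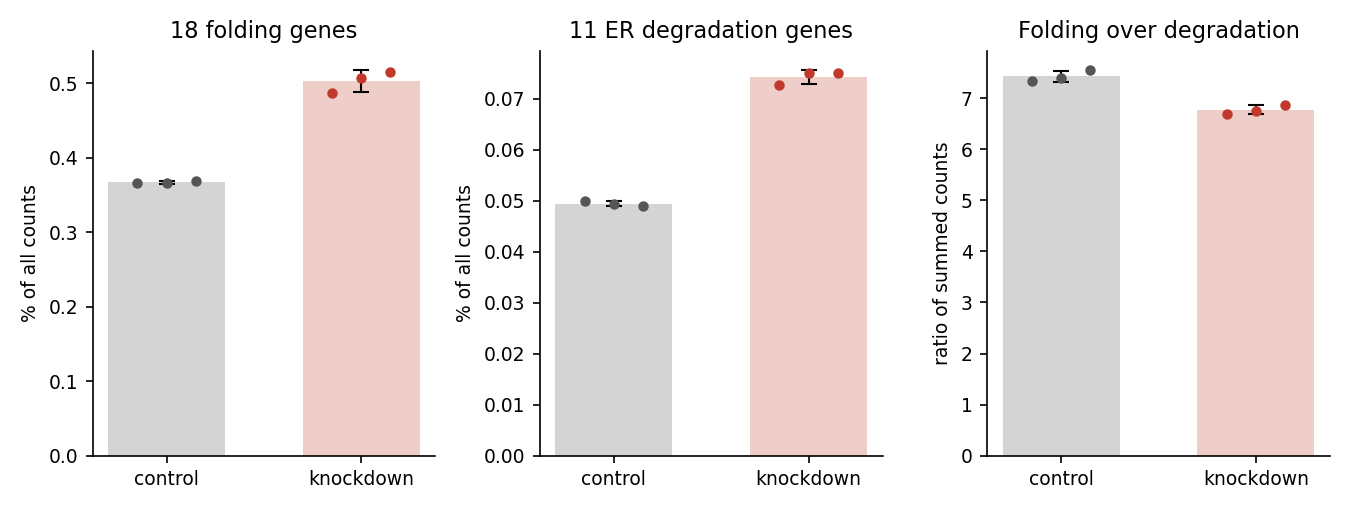
Share of all counts taken by the 18 folding genes and the 11 degradation genes, and the ratio of the 2 sums, in each library (points), with mean (bar) and SD (error bar) of 3; vertical axes start at 0. Both shares are higher in every knockdown library, and the ratio is lower, at 6.69 to 6.87 against 7.34 to 7.55. The direction of the ratio rests on how the folding class was drawn.

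Fold changes over the whole table varied with abundance. When all tested genes were put in 5 equal bins by mean log2 CPM, the median log2 fold change was 0.31 in the lowest bin and -0.20 in the highest, and 15 and 17 of the 37 genes lay in the upper 2 bins. Set against the median of its own bin, 17 of 18 folding genes, 8 of 11 degradation genes and all 4 sensors were above, and 0 of 3 translocation genes were. The exceptions were HYOU1 among folding genes and SYVN1, SELENOS and DERL3 among degradation genes. The median excess was 0.25 for folding genes and 0.31 for degradation genes. Whether abundance or depth has a part in the fold changes of these genes was not tested.

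**Figure D4:**
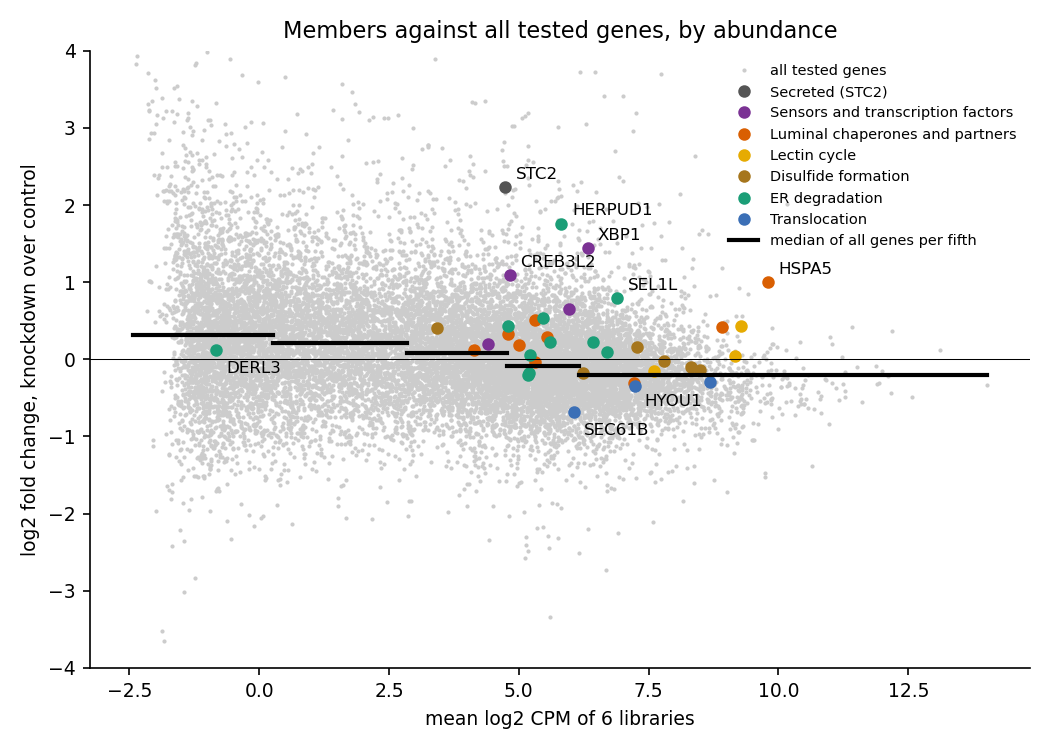
Log2 fold change against mean log2 CPM for all tested genes (grey, with 43 genes beyond the axis limits of 4 not drawn) and the 37 genes (coloured by role). Black lines are the median of all genes in each of 5 equal bins of abundance, falling from 0.31 to -0.20; STC2, HERPUD1, XBP1, CREB3L2, HSPA5 and SEL1L stand well above them.

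Levels were compared between genes as TMM-scaled CPM per kilobase of annotated exon. That length joins all annotated exons of a gene, which need not be those of the transcripts made here. The order of genes on this scale therefore depends on the annotation. In control, CALR was highest at 197 CPM per kilobase, with HSPA5 at 160.4, SEC61A1 at 96.8, CANX at 91.1 and HSP90B1 at 89.5. The order of the first pair was reversed in knockdown, where HSPA5 was at 322 and CALR at 266. In CPM without length, HSPA5 was above CALR in both groups, at 627 against 536 in control and 1257 against 721 in knockdown. Across libraries, CALR ran from 192 to 206 and HSPA5 from 159 to 163 in control, against 250 to 277 and 301 to 335 in knockdown, so the pair did not overlap in either group. HERPUD1 moved from place 28 to place 15 among the 37, STC2 from 34 to 24 and XBP1 from 17 to 11. DERL3 was lowest in both groups, at 0.126 and 0.138.

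**Figure D5:**
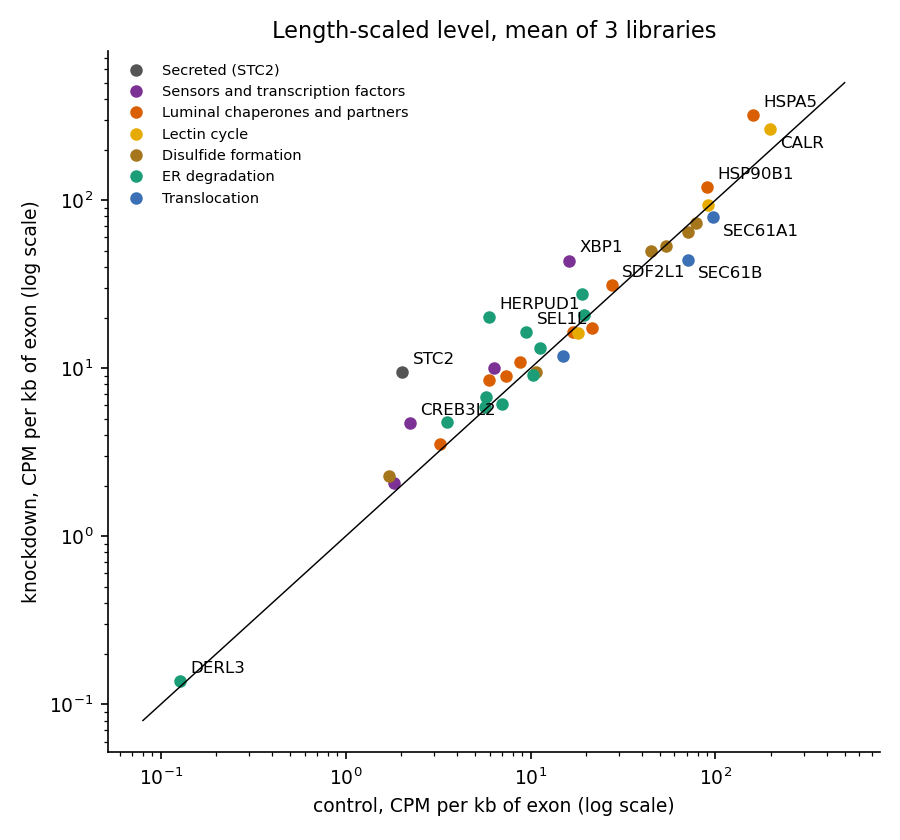
Mean level of each of the 37 genes in knockdown against control, as TMM-scaled CPM per kilobase of exon on log axes, with the line of equal level. HSPA5, at 160.4 in control and 322 in knockdown, passes CALR on this length-scaled measure, and STC2, HERPUD1, XBP1 and CREB3L2 lie furthest above the line.

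Other genes of the same pathway, from lists chosen by function, showed where rises and falls lay beyond the 37. The lists held 148 genes, of which 145 were tested; PDIA2, FKBP2 and ERN2 were not. The PERK and ATF4 arm had the largest median, 1.62, with 8 of 10 higher and 0 lower (80% higher, against 30.7% of all genes). DDIT3 (CHOP), a stress transcription factor, rose by 2.71 log2 units, although other genes cover 39.6% of its exonic bases. CHAC1, which degrades glutathione, averaged 15.9 ± 1.79 CPM in control and 93.5 ± 6.87 in knockdown (SD, n = 3), 2.56 higher on the log2 scale. The RNAs of ATF4 and of EIF2AK3 were not called, at -0.06 and 0.17. These are RNA levels and not a measure of PERK activity, which was not tested.

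Of 11 further sensor and processing factors, 3 rose and 5 fell (27.3% and 45.5%, against 30.7% and 30.9% of all genes). Against the median of its own abundance bin, 6 of the 11 were above. CREB3L1, the closest relative of CREB3L2, averaged 5.29 ± 0.491 CPM in control and 19.8 ± 0.779 in knockdown (SD, n = 3), 1.90 higher on the log2 scale, and ATF6B, the paralog of ATF6, rose by 0.87. RTCB, the ligase that joins the XBP1 exons after IRE1 has cut them, fell by 0.60 on the log2 scale. NFYA, a subunit of the factor that binds the CCAAT part of the ERSE, fell by 0.78. The median of this list was -0.04 and turned to 0.11 with library size alone, where 4 were higher and 4 lower.

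Of 32 further folding enzymes 14 were higher and 9 lower (43.8% and 28.1%, against 30.7% and 30.9% of all genes), with a median of 0.11. FKBP9, a prolyl isomerase, rose by 1.49 log2 units and CNPY4 by 0.74. FKBP14, another isomerase of this family, fell by 1.07, and TXNDC5 by 0.76, 60.6% of whose exonic bases belong to a read-through gene as well. Of 28 further degradation genes 11 were higher and 13 lower (39.3% and 46.4%), or 12 and 10 with library size alone. The upper 2 abundance bins, where 45.8% and 60.3% of all genes were lower, held 26 of the 28. Against the median of its own bin, 13 of the 28 were above, with a median difference of -0.02. FAM8A1 and UBXN8 rose by 0.86 and 0.76, and ERLEC1, a lectin of the same complex as OS9, and TMUB1 fell by 0.86 and 0.80.

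Among abundant genes falls were common over the whole table: in the highest of the 5 abundance bins 26.7% of all genes were higher and 60.3% lower. That bin held 15 of 22 further translocation genes, 8 of 16 glycosylation genes and 21 of 26 genes of early secretory transport, whose shares of lower genes were 59.1%, 56.3% and 50%. Against the median of its own bin, 10, 5 and 14 genes of these lists were above, with a median difference of -0.02, -0.08 and 0.02, so these counts of falls set none of the lists apart from genes of like abundance. Of the translocation genes 1 rose and 13 fell, or 6 and 6 with library size alone. SEC63, which recruits HSPA5 to the channel, rose by 0.31, and the channel subunit SEC61G and the signal recognition particle gene SRP72 fell by 0.51 and 0.48. Of the glycosylation genes 4 rose and 9 fell (4 and 5 with library size alone), with OSTC, of the oligosaccharyltransferase, at -1.46 and GANAB, of glucosidase II, at -0.45. PRKCSH, the partner of GANAB in that enzyme, was at 0.28, and MAN1A1 at 0.61. Of the early secretory genes 6 rose and 13 fell, a balance that turned to 13 and 9 with library size alone, with the coat genes SEC24D at 1.06 and COPB2 at 0.49, and SEC13 and TMED10 at -0.63 and -0.56. The medians of these 3 lists and of the further degradation genes were -0.13, -0.14, -0.10 and -0.11 with TMM, and turned to 0.02, 0.01, 0.05 and 0.04 with library size alone.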

How the data were processed

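The authors deposited a single table of raw read counts, 1 row per Ensembl gene and 1 column per library. Tools named in the submitters' processing notes are featureCounts 2.0.1, STAR 2.7.0d, DESeq2 1.30.1 and Trim Galore 0.6.6, with the build hg38; which annotation and strand setting were used is not given in the sources used here, so counts of overlapping genes are uncertain. Symbols came from a gene name table (60261 of 60617 identifiers), coordinates, exon lengths and exon overlaps from GENCODE v29 on GRCh38, and promoter windows from RefSeq. Tests used edgeR 4.0.16 in R 4.3.3 on all genes: filterByExpr (minimum count 10), TMM, robust quasi-likelihood fit with group as the only term, and Benjamini-Hochberg adjustment over 17223 genes. SE was derived from the test statistic. CPM are TMM-scaled, except for cell type markers, and log2 CPM used a prior count of 2. Alternatives were other scalings, filters, DESeq2 1.42.0, a replicate block, thinning and leaving out each library.

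All 37 genes were open to naming. From each further list the text names up to 2 rises and 2 falls among called genes whose mean log2 CPM reached 1 and whose groups did not overlap, and any gene of the PERK list. Genes with a promoter word and the KDEL receptors in the closing section were named after their values were seen. Members, lists and promoter words were chosen with earlier results of these data known.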

Additional observations from a re-analysis of the deposited data

How the results depend on the processing

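Of the 37 genes, 23 kept the same call in every alternative setting that tested them, 14 for each but DERL3, which the stricter filter left out: 17 of 20 higher (all but SDF2L1, EDEM3 and ERN1), 4 of 10 lower (HYOU1, SEC61A1, SEC61B and SSR1) and 2 of 7 without a call (MANF and DERL3). With library size alone, 4 of the 37 genes, 1 folding gene and 0 degradation genes were lower, and PDIA3, PDIA6 and P4HB changed sign, to 0.0487, 0.138 and 0.0105. Lower degradation genes numbered 0 with upper-quartile factors, 1 with at least 50 counts in 3 libraries, and 1 to 2 when 1 library was left out. The difference between the medians of degradation and folding genes was -0.0181 with the narrower chaperone class and 0.0269 to 0.132 when 1 library was left out; the cause was not tested. Over the whole table, DESeq2 called the fewest genes higher, 4547, and library size alone the most, 6986; the latter called the fewest lower, 3855. A fit with a replicate block called 5214 higher and 5263 lower, among them 20 and 10 of the 37, and changed no call of the 37. Deviations of same-numbered libraries correlated at -0.000751, -0.00642 and -0.0235, so the numbers give no sign of pairing. Thinning to the smallest library gave 20 higher and 10 lower of the 37. DERL3, at 10 to 18 counts per library, was the gene of the 37 with the widest interval.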

Other observations

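The UPRE word TGACGTGG was found in the promoter windows of 16 of 122 further pathway genes (13.1%), against 0.927% of all genes with a window. Among the 37 genes it was found in HYOU1 only, of 34 with a window. The 16 genes did not move one way: 3 were higher (TXNDC11 at 0.65, COPB2 at 0.49 and SEC16A at 0.16), 6 were lower and 7 were not called, with a median log2 fold change of 0.02. The lower genes were TXNDC5 (-0.76), UBE2J1 (-0.46), VCP (-0.36), SEC23A (-0.33), SSR3 (-0.14) and DNAJC10 (-0.08). KDELR3, the KDEL receptor gene among the 16, was at 0.08 without a call, and its relatives KDELR1 and KDELR2, which return escaped chaperones to the ER, were at -0.27 and -0.16. The CARE word was in 5 of the 122 genes (4.10%), near its share of 4.46% over all genes with a window. Of these, CHAC1 (2.56), ATF3 (2.12), CEBPG (0.44) and MCFD2 (0.23) were higher and SRPRB (-0.41) was lower. CHAC1, ATF3 and CEBPG belong to the PERK list, of which 80% was higher whether or not the word was present. These words and genes were looked at with the fold changes known, so the values are a description.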
